A study of Mus musculus with 18 samples.

Results

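The experiment described here compared mouse neurons that received a vector carrying a short hairpin RNA (shRNA) against Ptbp1 with neurons that received a scrambled hairpin. It comprised 9 of the 18 libraries of the series, chosen by their treatment label: 4 Ptbp1 shRNA libraries and 5 scrambled shRNA libraries, each from a separate mouse. The genes described are the 10093 of 39017 gene identifiers that averaged 5 or more CPM (read counts scaled to a common library total) over these 9 libraries. They held 98.8% of the gene counts, and 10084 of them passed the filter on low counts and were tested. A gene can reach that average through a single group, so genes that are near 0 in one group and high in the other are among them and had to differ.

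Both vectors also expressed the red fluorescent protein mCherry, so the controls carried an injected vector, a hairpin and mCherry too. The study injected 5 mice per group and left out 1 Ptbp1 shRNA mouse in whose library no read matched mCherry; the entorhinal cortices of both sides were pooled. The labels give the tissue as hippocampus, while the title and design name layer II of the entorhinal cortex. The assay was TRAP, translating ribosome affinity purification, in which a tagged ribosomal protein is made in a chosen cell type and pulled down with the mRNAs on its ribosomes. The promoter that drove the tag, the hairpin sequence, the time after injection and the strain, age and sex of the mice are not given in these sources. How many of the tagged neurons carried the vector is not given either, and a library can mix transduced and untransduced neurons.

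Ptbp1, polypyrimidine tract binding protein 1, binds pyrimidine-rich RNA and mostly represses the exons next to it. Neurons lower it as they mature, its paralogue Ptbp2 takes over part of its targets, and several neuronal exons, in transcripts of scaffolds, kinases and cytoskeletal proteins, become included in that switch. Entorhinal layer II holds the excitatory neurons that project to the hippocampus and that degenerate early in Alzheimer's disease.

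The libraries held between 34339355 and 46544178 gene counts, and the groups' totals differed by less than their spread (exact permutation test, two-sided, p = 0.198, adjusted p = 0.495 over 5 library measures). Coverage along transcripts was uneven in Ptbp1 shRNA library 2 and scrambled library 5, in which 6.46% and 6.3% of the exon bins that were strong on average had no count, against 0.821 to 2.73% in the other 7. The share of counts from mitochondrial genes was 0.527 to 0.949% in the Ptbp1 shRNA libraries and 0.184 to 0.537% in the scrambled ones (exact permutation p = 0.0159, adjusted p = 0.0795). Levels varied widely between mice: among the well-expressed genes the median coefficient of variation was 43.0% over the scrambled and 48.3% over the Ptbp1 shRNA libraries. Whether the numbered mice shared a litter or a day of injection is not given, and no pairing was used.

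In the following, per-library CPM values are listed for Ptbp1 shRNA libraries 1 to 4 against scrambled libraries 1 to 5. Each log2 difference (Ptbp1 shRNA minus scrambled) carries its standard error after ± and an adjusted p from edgeR over all genes tested.

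Ptbp1 itself was not among the well-expressed genes. Ptbp1 (ENSMUSG00000006498, chromosome 10, 79854427 to 79864771, plus strand) counted 6.55, 0.1004, 0.587 and 13.1 against 3.38, 0.929, 6.71, 0.348 and 9.100 CPM. The groups overlapped over nearly their whole range. The mean of log2(CPM + 0.5) differed by -0.18 between the groups (Ptbp1 shRNA minus scrambled; exact permutation test, two-sided, p = 0.881), and the edgeR estimate was 0.31 ± 1.27 (SE). The sign of the first of these turned when Ptbp1 shRNA library 2 or 3, or scrambled library 3 or 5, was left out. Exons of Plppr3, on the opposite strand, overlap those of Ptbp1, and the strandedness of the counting is not given, so these counts may hold reads of both. The knockdown therefore could not be read from Ptbp1's own level in these libraries, and the libraries are named below by their labels.

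The paralogues were better covered. Ptbp2, which replaces Ptbp1 in neurons, counted 75.7, 144, 208 and 312 against 170.4, 209, 258, 245 and 166 CPM, a log2 difference of -0.18 ± 0.34, adjusted p = 0.902. Ptbp3 counted 59.9, 51.7, 101 and 38.3 against 51.7, 44.6, 42.6, 46.1 and 76.8 CPM, a log2 difference of 0.26 ± 0.35, adjusted p = 0.853. Mapt, which encodes the microtubule-associated protein tau, counted 82.2, 234, 129 and 119.9 against 215, 182, 171, 132 and 255 CPM, a log2 difference of -0.43 ± 0.31, adjusted p = 0.664. The groups overlapped for all 3 genes.

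Across the transcriptome no gene passed the test over all 14656 genes (edgeR quasi-likelihood test, Benjamini-Hochberg adjusted p at or under 0.05, 0% of genes), although 27 genes stood just outside it at an adjusted p of 0.0625. DESeq2, run on 21830 genes without the filter on low counts, called 705, of which 497 were well expressed. Over the 14656 genes, limma with quality weights called 69 and edgeR with 1 surrogate variable 30. At an unadjusted p under 0.05 edgeR's own count was 1639 where 733 would be expected. Among the well-expressed genes, 692 were higher at an unadjusted p under 0.05 (6.86%) and 693 lower (6.87%), against 504 expected in both directions together. In 277 well-expressed genes (2.75%) every Ptbp1 shRNA library lay above every scrambled one, and in 308 (3.05%) every one lay below. With scaling by library totals alone the split was 416 against 209. Log2 differences lay above 0 in 50.6% and below 0 in 49.4% of the well-expressed genes, with a median of 0.01. In TRAP libraries a lower value may come from fewer tagged cells of a kind or from less ribosome-bound RNA in each, and these cannot be told apart.

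When only the 10093 well-expressed genes were tested, 42 were called (0.416%), 18 higher and 24 lower, with adjusted p-values from 0.0313 to 0.0496. All 42 were among the calls of DESeq2, 34 among those of limma over all genes and 24 among those with 1 surrogate variable. These fits used the same 9 libraries and are not independent support. All 42 kept their direction in every alternative. Each was without overlap between the groups, so leaving out libraries could hardly turn its direction. The count itself moved between 0 and 86 over the alternatives to this test. It was 0 without Ptbp1 shRNA library 1, without Ptbp1 shRNA library 3, and without scrambled library 1 or 3; it was 1 without scrambled library 4. It was 23 without the pair of unevenly covered libraries, 16 of which were among the 42.

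The direction of the differences depended on the level of the gene. Among 4 equal classes by level, in the class with the highest level (mean CPM of 77.7 or more), 382 genes were lower and 208 higher at an unadjusted p under 0.05, and 41.5% had a log2 difference above 0. In the lowest class (5 to 11.8 CPM) 71 were lower and 131 higher, and 54.8% lay above 0. The median log2 difference was 0.10 in the lowest class, 0.12 and -0.01 in the middle ones and -0.10 in the highest. These medians are the background for the lists of abundant neuronal genes below. By genomic span, the share above 0 ranged only from 46.9%, in the class of genes longer than 69.4 kb, to 53.4%.

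**Figure D1:**
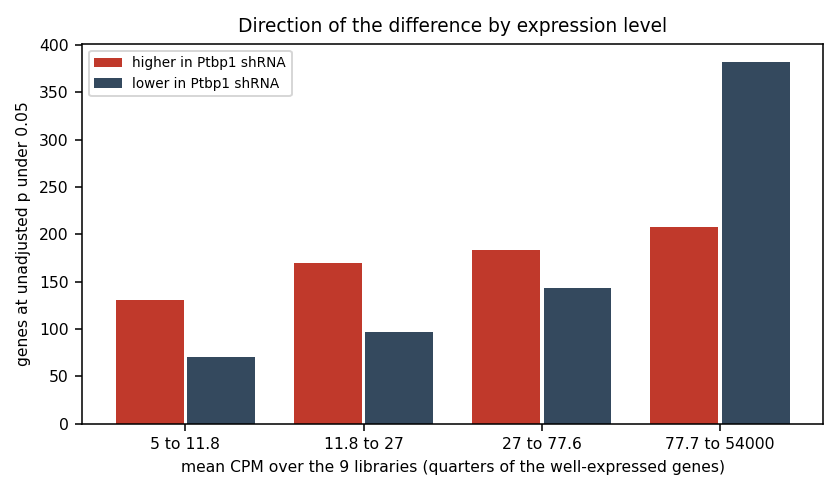
Bars give the number of well-expressed genes at an unadjusted p under 0.05 (edgeR), higher (red) or lower (dark blue) in the Ptbp1 shRNA libraries, for 4 equal groups of genes by mean CPM over the 9 libraries. Higher genes outnumber lower ones in every class up to 77.6 CPM, by 183 against 143 in the class from 27.0 to 77.6 CPM. Lower ones outnumber higher ones only in the highest class, 382 against 208.

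The genes with the smallest p-values that separated the groups without overlap were 12 higher and 12 lower ones. Ctdsp2, a nuclear phosphatase of the family that acts on the tail of RNA polymerase II, counted 26.99, 53.4, 116 and 38.3 against 6.08, 4.86, 7.56, 11.8 and 8.16 CPM, a log2 difference of 2.93 ± 0.50, adjusted p = 0.0625. The lowest Ptbp1 shRNA library was well above the highest scrambled one. Arhgef11, an exchange factor that activates RhoA, counted 200.4, 125, 214 and 210.3 against 78.2, 59.8, 62.7, 67.3 and 90.5 CPM (1.39 ± 0.25, adjusted p = 0.0625). Scyl2, a pseudokinase of clathrin-coated vesicles, counted 173, 285, 166 and 242 against 67.02, 72.3, 71.6, 56.5 and 116 CPM (1.498 ± 0.28, adjusted p = 0.0625). Neither gene's groups overlapped, and scrambled library 5 was the highest scrambled library for both.

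Bbs9, a subunit of the BBSome that carries membrane proteins to cilia, counted 28.5, 51.9, 24.97 and 52.6 against 2.68, 7.69, 9.49, 5.07 and 2.23 CPM, a log2 difference of 2.86 ± 0.56, adjusted p = 0.0758. Haus1, a subunit of the augmin complex that branches microtubules, was near 0 in the scrambled libraries (0.572, 0.119, 0.766, 1.11 and 0.227 CPM) and counted 6.55, 28.7, 15.6 and 14.1 CPM in the Ptbp1 shRNA libraries. Neurod4, a neurogenic transcription factor, was at 0 in 4 scrambled libraries and 0.522 CPM in the other, against 20.8, 3.69, 42.5 and 52.2 CPM. Haus1 and Neurod4 reached the mean of 5 CPM only through the Ptbp1 shRNA group. The remaining higher genes were Nars, Atf3, Cdkn1a and Dync1h1, described with their groups below, and Cxadr and Luzp1. Cxadr, a cell adhesion molecule of synapses that also serves as a virus receptor, counted 270.4, 145, 244 and 204 against 30.5, 73.9, 52.4, 44.3 and 17.4 CPM. Luzp1, a protein of the actin cytoskeleton and the cilium base, counted 386, 589, 325 and 563 against 168, 160.2, 127, 226 and 122 CPM. Both were without overlap.

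Among the 12 lower genes, Tmod2, the neuronal tropomodulin that caps the slow-growing end of actin filaments, counted 703, 948, 783 and 751 against 1496, 1406, 1418, 1457 and 1657 CPM, a log2 difference of -0.90 ± 0.16, adjusted p = 0.0625. Wipf3, a partner of WASP in actin assembly, counted 239.8, 167, 299 and 258 against 689, 495, 625, 689 and 1199 CPM (-1.62 ± 0.28, adjusted p = 0.0625). Cnot7, a deadenylase of the CCR4-NOT complex that shortens mRNA tails, counted 62.3, 43.6, 76.2 and 75.2 against 198, 309.6, 138, 174 and 178 CPM (-1.63 ± 0.29, adjusted p = 0.0625). Scrambled library 2 was the highest for Cnot7 and scrambled library 5 for Wipf3, and the other scrambled libraries still lay above all Ptbp1 shRNA libraries.

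Arsb, a lysosomal sulfatase that degrades dermatan sulfate, counted 62.4, 51.8, 51.9 and 58.4 against 141, 151, 116, 153 and 139 CPM, a log2 difference of -1.32 ± 0.23, adjusted p = 0.0625. Its groups lay apart with little spread within either. Prrg3, a transmembrane protein with a vitamin K-dependent domain, counted 30.9, 20.4, 25.5 and 13.1 against 92.05, 77.3, 106, 104 and 62.7 CPM (-1.97 ± 0.34, adjusted p = 0.0625). Tgfa, a ligand of the epidermal growth factor receptor, counted 1.18, 1.86, 3.44 and 0.365 against 27.8, 33.4, 29.8, 14.8 and 22.5 CPM, and passed the mean of 5 CPM only through the scrambled group. The other lower genes, Ubxn2b, Kcnip3, Cplx2, Kalrn, Pgbd5 and Asap1, had log2 differences from -2.17 (Pgbd5) to -1.19 (Kalrn), with no overlap. Exons of Cxadr, Wipf3, Arhgef11, Haus1, Cnot7, Arsb and Dync1h1 overlap a gene on the opposite strand, and the strand of their reads was not resolved.

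**Figure D2:**
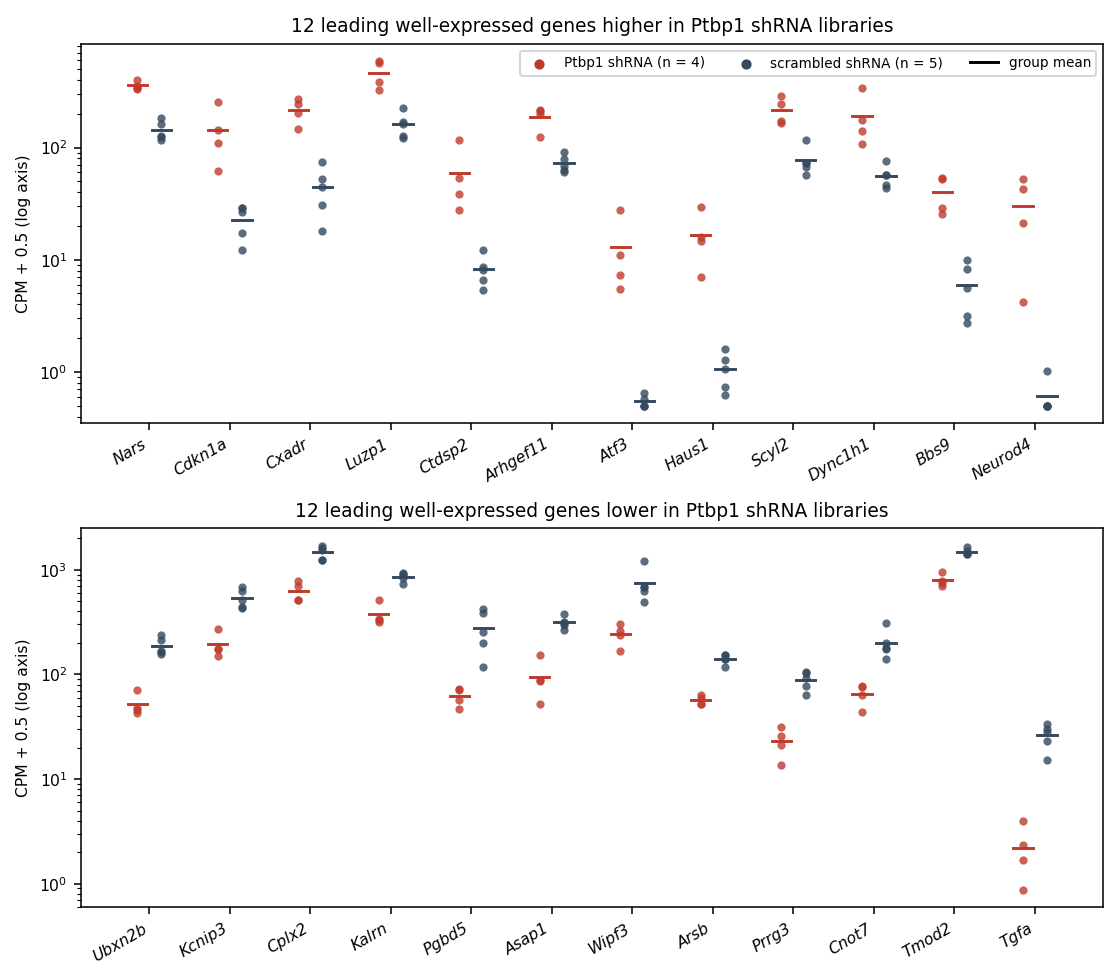
Each point is the CPM plus 0.5 of a library on a log axis, for the 12 well-expressed genes higher (upper panel) and the 12 lower (lower panel) in Ptbp1 shRNA libraries with the smallest p among genes whose groups do not overlap; red points are the 4 Ptbp1 shRNA and dark blue points the 5 scrambled libraries, and bars are group means. Atf3, Haus1 and Neurod4 sit near 0 in the scrambled libraries and Tgfa near 0 in the Ptbp1 shRNA libraries; no red point crosses a dark blue one for any gene.

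The 42 genes called among the well-expressed ones held 13 that are outside the lists and leading genes described here; those named were chosen because of their values. Of these, 2 were higher: Scg2, a secretory granule protein, with 245, 194, 165 and 364 against 38.6, 33.2, 42.2, 75.3 and 119 CPM, and Npat, an activator of histone genes, with 97.1, 105, 165 and 203 against 48.9, 43.4, 49.8, 51.5 and 66.97 CPM. Among the 11 lower ones, Foxo1, a transcription factor inhibited by insulin signalling, counted 70.8, 43.2, 86.3 and 143 against 305, 282, 275, 271 and 180.4 CPM. Pik3r1, the regulatory subunit of phosphoinositide 3-kinase, counted 50.6, 42.04, 65.7 and 61.9 against 137, 137, 117, 208 and 144 CPM. Both were without overlap. Lower too were Tmem252, Sgtb, Ppp1r2, Nedd4l, Chn2, A830036E02Rik, Tsr1 and Creg2, each without overlap between the groups. Among them are a co-chaperone (Sgtb), an inhibitor of protein phosphatase 1 (Ppp1r2) and a ubiquitin ligase (Nedd4l). Tmem252 counted 0.99, 0.15, 1.65 and 1.59 against 76.8, 3.17, 32.1, 37.3 and 50.1 CPM. It passed the mean of 5 CPM only through the scrambled group and had to differ.

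Of the lists with 8 or more well-expressed members, the highest median was that of the integrated stress response, in which phosphorylated eIF2 slows translation and raises the transcription factor ATF4, which induces amino acid transporters and synthetic enzymes. All 19 well-expressed members had a log2 difference above 0, with a median of 0.996 against 0.01 for all well-expressed genes. At an unadjusted p under 0.05 stood 8 (background for higher genes 6.86%), and 4 were without overlap (background 2.75%). Of these members 6 (Atf3, Chac1, Psph, Shmt2, Slc7a3 and Slc7a5) averaged under 5 CPM in the scrambled libraries and so reached the mean of 5 CPM only through the Ptbp1 shRNA group and had to differ; they make up 5 of those with that p and 3 of those without overlap. Over all 28 members tested, at any level, 25 lay above 0. The summed level of the whole list was 981, 980.3, 829 and 835 CPM in the Ptbp1 shRNA libraries and 526, 468, 548, 549 and 426 CPM in the scrambled ones, so every Ptbp1 shRNA library lay above every scrambled one. Without the unevenly covered pair of libraries 18 of 19 lay above 0, with a median of 0.88.

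Among its transcription factors, Atf3, which ATF4 induces, was at or near 0 in the scrambled libraries (0.07796, 0, 0, 0.152 and 0 CPM) and counted 6.83, 10.4, 4.95 and 27.2 CPM in the Ptbp1 shRNA libraries. Atf4 itself counted 177, 145, 126 and 54.9 against 78.2, 91.6, 79.9, 58.9 and 45.2 CPM (log2 difference 0.83 ± 0.34, adjusted p = 0.385), and Ddit3, the factor CHOP, counted 13.2, 22.1, 14.2 and 9.79 against 4.26, 2.81, 1.09, 6.31 and 15.5 CPM (1.31 ± 0.74, adjusted p = 0.561). Both overlapped between the groups, Atf4 through Ptbp1 shRNA library 4 and Ddit3 through scrambled library 5. Among the enzymes, Shmt2, the mitochondrial serine hydroxymethyltransferase, counted 23.5, 36.9, 21.7 and 42.5 against 1.32, 5.17, 1.04, 6.53 and 0.518 CPM (3.41 ± 0.76, adjusted p = 0.125). Chac1, which degrades glutathione, counted 15.3, 12.5, 16.5 and 12.2 against 2.23, 1.55, 4.41, 3.22 and 2.75 CPM (2.32 ± 0.63, adjusted p = 0.192). Neither overlapped. Asns, which makes asparagine, counted 149.7, 149, 84.8 and 137 against 103, 77.1, 76.4, 67.1 and 58.8 CPM (0.77 ± 0.27, adjusted p = 0.296) and overlapped only through Ptbp1 shRNA library 3.

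Of the amino acid transporters in the list, Slc7a3, Slc7a5 and Slc38a2 had an unadjusted p under 0.05. Slc38a2 counted 116, 157, 108 and 123 against 51.95, 63.7, 28.3, 108 and 13.9 CPM, a log2 difference of 1.24 ± 0.46, adjusted p = 0.328. Slc7a3 had a log2 difference of 2.14 ± 0.78, adjusted p = 0.319 and Slc7a5 of 2.17 ± 0.86, adjusted p = 0.366, the latter with 43.3 CPM in Ptbp1 shRNA library 2 against at most 9.31 in the other 3. Slc7a1, Slc7a11 and Slc3a2 lay above 0 without reaching that level (edgeR adjusted p = 0.533, 0.696 and 0.633), although the groups did not overlap for Slc7a1. The smallest difference of the list was that of Vldlr, 0.06 ± 0.34. Atf4, Ddit3, Asns, the transporters and Vldlr are named here because they belong to the list.

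The cytosolic aminoacyl-tRNA synthetases charge tRNAs, and many are ATF4 targets. Of 22 well-expressed members, 18 lay above and 4 below 0, with a median of 0.67. At an unadjusted p under 0.05, 5 were higher and none lower, beside backgrounds of 6.86 and 6.87%. In 4 members, all higher, the groups did not overlap (background 2.75%). Nars, the asparaginyl synthetase, counted 342, 333, 396 and 356 against 124, 117, 161, 184 and 126 CPM (1.33 ± 0.21, adjusted p = 0.0625). Aars, the alanyl synthetase, counted 74.2, 125, 65.3 and 132 against 39.7, 14.96, 8.91, 28.5 and 19.9 CPM (2.15 ± 0.44, adjusted p = 0.0851), and both were among the 42. Vars, the valyl synthetase, counted 4.52, 25.6, 5.48 and 9.92 against 0.884, 0.0476, 0.859, 0.631 and 0.1295 CPM (4.47 ± 1.06, adjusted p = 0.144); it is in these counts only through its level in the Ptbp1 shRNA group. The 4 below 0 were Dars, Iars, Eprs and Farsb, of which Farsb had the largest difference, -0.54 ± 0.27 (adjusted p = 0.483). Their summed level was 1217, 1137, 1379 and 1354 CPM against 878, 764, 777, 847 and 875 CPM, without overlap, and the log2 differences of single members ranged from -0.54 to 4.47.

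The mitochondrial synthetases had 8 well-expressed members, 7 above 0, with a median of 0.92. The median was 0.51 without Ptbp1 shRNA library 4, 0.53 with 1 surrogate variable and 0.41 with limma. Iars2 counted 112, 94.7, 72.3 and 111 against 44.98, 37.7, 30.8, 71.4 and 65.9 CPM (0.96 ± 0.32, adjusted p = 0.267) and did not overlap. Lars2 (0.64 ± 0.28, adjusted p = 0.419) had an unadjusted p under 0.05 and overlapped.

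Chaperones and folding enzymes of the endoplasmic reticulum (ER) are in many cases induced by the unfolded protein response. Of 33 well-expressed members 25 lay above 0 (50.6% of all well-expressed genes did), with a median of 0.39; 4 were higher at an unadjusted p under 0.05 (background 6.86%) and 3 without overlap (background 2.75%). Atf6, a membrane-bound sensor of misfolded protein, counted 144, 204, 129 and 91.7 against 57.4, 79.7, 46.01, 70.2 and 74.4 CPM (1.12 ± 0.29, adjusted p = 0.168). Dnajb9, a co-chaperone, counted 229, 193, 223 and 326 against 117, 122, 146, 84.2 and 38.2 CPM (1.26 ± 0.34, adjusted p = 0.192). Ero1l, the oxidase that drives disulfide formation, counted 239, 493, 195 and 180.3 against 69.6, 148, 146, 161 and 179 CPM (0.98 ± 0.34, adjusted p = 0.296). These 3 separated the groups, whereas Hspa5, the main ER chaperone BiP, counted 114, 171, 136 and 69.8 against 45.1, 97.3, 50.8, 88.04 and 37.1 CPM (0.95 ± 0.36, adjusted p = 0.34) and overlapped. Hsp90b1, Canx and Calr, which are also abundant in the ER, had log2 differences of 0.30 ± 0.27, 0.32 ± 0.25 and -0.47 ± 0.33 (edgeR adjusted p = 0.749, 0.697 and 0.661). Xbp1, whose mRNA is spliced in this response, had a log2 difference of 0.35 ± 0.72. Hspa5, Hsp90b1, Canx, Calr and Xbp1 were named for their roles and not by their p-values.

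Some promoters of these genes hold known elements of both pathways, printed here to show what members of a list share beside their levels. In the 300-base windows of RefSeq (build GRCm38.p6, 250 bases before to 50 after the start), the ATF4 element TGATGNAA on either strand was present in 5 of the 16 well-expressed integrated stress genes with a promoter in the table (31.2%), in 5 of 14 cytosolic synthetases (35.7%), in 1 of 26 ER chaperones (3.85%) and in 4.51% of all 27025 genes. It was present in 2.58% of the 7320 well-expressed genes that had a promoter. The ER stress element (CCAAT and CCACG with any 9 bases between them) was present in 7 of 26 ER chaperones (26.9%), in neither of the other lists and in 0.137% of all genes. Promoters were found for 16 of 19, 14 of 22 and 26 of 33 members; for the synthetases and chaperones that is under 80%, so their shares describe the matched members and are void as a property of the list. The XBP1 element TGACGTGG was found in 1 integrated stress gene, Vegfa, against 0.714% of all genes. The cAMP element TGACGTCA was in none of the 3 lists, against 2.03% of all genes. The stretches below run 5′ to 3′ on the gene's strand, end before the start site, and have the element in capitals; TTGCATCA and TTTCATCA are the ATF4 element read on the other strand.
Asns (chr6:7693219-7693238, minus strand): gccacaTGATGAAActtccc
Atf3 (chr1:191183430-191183449, minus strand): tcgcacTTGCATCAccaagt
Chac1 (chr2:119351043-119351062, plus strand): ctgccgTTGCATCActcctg
Slc7a11 (chr3:50443666-50443685, minus strand): tgtggcTGATGCAAacctgg
Aars (chr8:111033724-111033743, plus strand): tgagcaTTGCATCAgccgag
Gars (chr6:55037965-55037984, plus strand): gcgctaTTTCATCAtgcacc
Tars (chr15:11399660-11399679, minus strand): gtcccgTTGCATCAgctggt
Hspa5 (chr2:34772025-34772043, plus strand): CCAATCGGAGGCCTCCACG
Hsp90b1 (chr10:86705638-86705656, minus strand): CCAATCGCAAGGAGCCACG
Dnajc3 (chr14:118937827-118937845, plus strand): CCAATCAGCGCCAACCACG

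Genes with an element differed among themselves. Of the genes printed, Atf3, Chac1 and Aars were without overlap, while Tars (log2 difference 0.26 ± 0.73) and Dnajc3 (0.27 ± 0.54) lay close to 0. Nars, Vars and Shmt2, which separated the groups, are not among the genes in which the ATF4 element was found. Not every member had a promoter among the windows searched, so this does not show that these genes lack it.

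**Figure D3:**
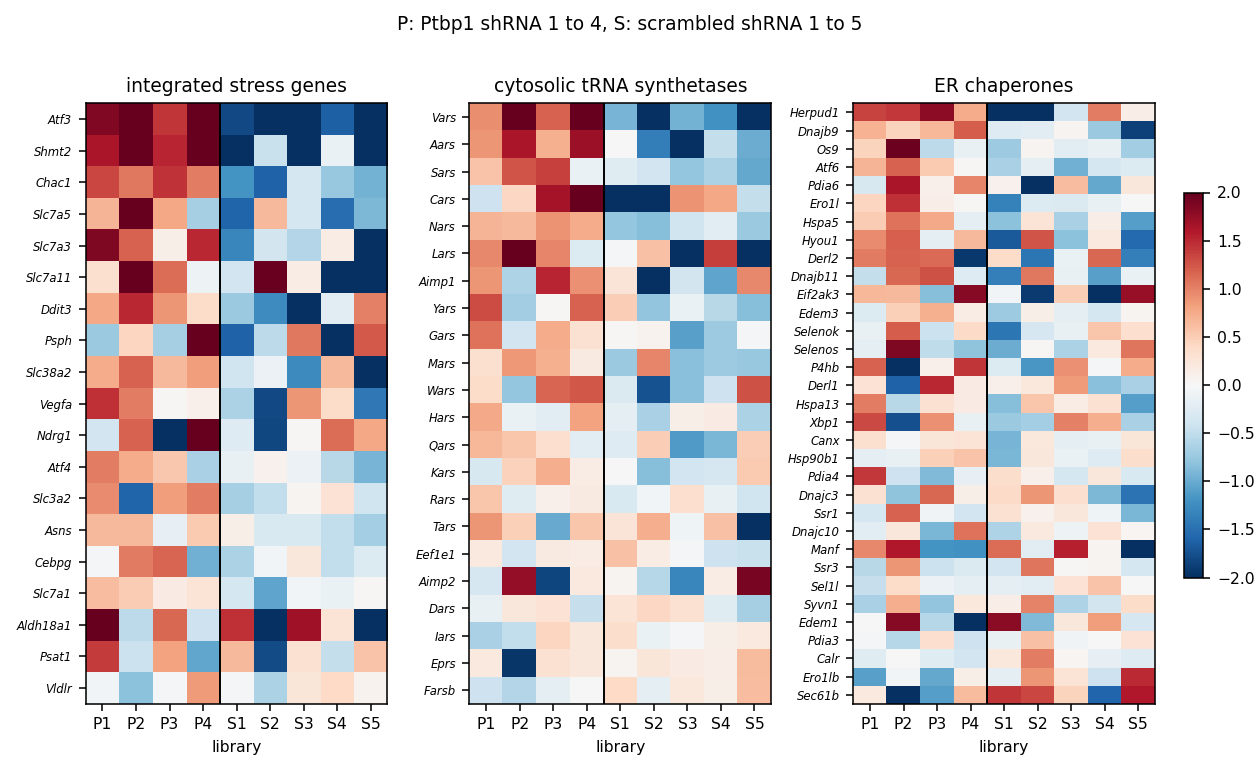
Each cell gives log2(CPM + 0.5) of a library minus the gene's mean over the 9 libraries, red above and blue below (colours end at 2 and -2), for the well-expressed members of 3 lists ordered by their fitted log2 difference; the line divides Ptbp1 shRNA libraries 1 to 4 from scrambled libraries 1 to 5. The 19 integrated stress genes are mostly red on the left, while the lower rows of the synthetase and chaperone panels show no such division.

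Genes activated by p53, the transcription factor that responds to DNA damage, lay in both directions. Of 20 well-expressed members 15 lay above 0, with a median of 0.32 (0.16 without scrambled library 5). At an unadjusted p under 0.05, 7 were higher and 3 lower, beside backgrounds of 6.86 and 6.87%. Of the well-expressed members, 3 averaged under 5 CPM in the scrambled libraries. They reached the mean of 5 CPM only through the Ptbp1 shRNA group and had to differ. They include 2 of the 7 higher ones. Cdkn1a, the cell cycle inhibitor p21, counted 142, 255, 109.9 and 60.9 against 11.7, 28.2, 16.8, 28.4 and 26.3 CPM. Zmat3, an RNA-binding protein induced by p53, counted 2310, 1425, 1482 and 1031 against 858, 536, 922, 719 and 689 CPM (1.07 ± 0.24, adjusted p = 0.127). Mdm2, the ligase that degrades p53, counted 181, 325, 321 and 133 against 108, 86.8, 151, 97.3 and 163 CPM (0.99 ± 0.31, adjusted p = 0.248). Cdkn1a and Zmat3 did not overlap, and Mdm2 did. Rrm2b, another p53 target that supplies deoxynucleotides, lay in the opposite direction (42.5, 125, 136 and 90.4 against 177, 265, 178, 158 and 222 CPM; -1.02 ± 0.33, adjusted p = 0.257), and it is named for that after its values were seen. The summed level of the list separated the groups (3528, 2821, 2773 and 2244 CPM against 1791, 1645, 1913, 1682 and 1662 CPM), and Zmat3 alone supplied 1031 to 2310 CPM of it in the Ptbp1 shRNA libraries.

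Of 25 well-expressed DNA damage genes 13 lay above 0 (median 0.05), and of all 34 tested 21 (median 0.50). Of 18 apoptosis genes 11 lay above 0 (median 0.15). The repair genes with the smallest p varied widely between libraries. Chek1, a checkpoint kinase, counted 2.85, 1.38, 42.7 and 5.43 against 0.156, 0.786, 0.0464, 0 and 0.0324 CPM. Lig1, a DNA ligase, counted 21.4, 2.38, 25.1 and 70.7 against 4.68, 0.286, 3.06, 1.26 and 0 CPM. Lig4, the ligase of end joining, counted 30.8, 84.6, 25.1 and 218 against 22.9, 40.3, 22.7, 24.4 and 57.8 CPM. Chek1 and Lig1 reached the mean of 5 CPM only through the Ptbp1 shRNA group and had to differ. The apoptosis genes Bcl2l11 and Diablo were higher and the inhibitor Xiap lower at an unadjusted p under 0.05. Bcl2l11 counted 46.1 CPM in Ptbp1 shRNA library 2 and at most 2.58 CPM in the other 8. It too reached the mean of 5 CPM only through the Ptbp1 shRNA group and had to differ. Xiap counted 46.9, 78.3, 87.1 and 95.8 against 105, 165, 105, 133 and 148 CPM (-0.77 ± 0.28, adjusted p = 0.313), without overlap.

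Cytosolic heat shock proteins had 16 of 25 members above 0 (median 0.25), 4 of them without overlap (background 2.75%). Of these 4, 1 averaged under 5 CPM in the scrambled libraries. It reached the mean of 5 CPM only through the Ptbp1 shRNA group and had to differ. Hsp90aa1, the inducible HSP90, counted 3890, 4355, 3982 and 5791 against 3211, 3093, 2890, 3028 and 2341 CPM (0.63 ± 0.17, adjusted p = 0.195). Hspa9, the HSP70 of mitochondria, counted 213, 158, 149 and 112 against 80.5, 65.9, 58.4, 83.6 and 81.6 CPM (1.097 ± 0.25, adjusted p = 0.134). Hspa4l, an HSP110-type exchange factor, lay the other way with 312, 822, 438 and 659 against 1371, 1380, 876, 1425 and 2013 CPM (-1.34 ± 0.30, adjusted p = 0.127). None of the 3 overlapped. Oxidative stress genes had 13 of 25 above 0 (median 0.01, which turned negative with upper quartile scaling); Gclm, for glutathione synthesis, counted 293, 504, 435 and 477 against 239, 339, 260.5, 184 and 227 CPM (0.78 ± 0.23, adjusted p = 0.224). Txnrd1, a thioredoxin reductase, and catalase (Cat) had log2 differences of 1.86 ± 0.71, adjusted p = 0.342 and 0.76 ± 0.29, adjusted p = 0.349.

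Proteasome subunits and regulators had 26 of 39 above 0, with a median of 0.28, 9 higher and 2 lower at an unadjusted p under 0.05, beside backgrounds of 6.86 and 6.87%. The median was 0.06 without Ptbp1 shRNA library 2. Psmd1, a base subunit of the regulatory particle, counted 309, 306, 286 and 245 against 184, 122, 254, 144 and 114 CPM (0.81 ± 0.25, adjusted p = 0.248). Psma1, a core subunit, counted 66.4, 25.3, 61.4 and 48.03 against 21.5, 19.3, 28.1, 19.1 and 11.4 CPM (1.34 ± 0.41, adjusted p = 0.23). Psme4, an alternative cap of the proteasome, was lower, with 29.99, 17.2, 19.7 and 43.2 against 161, 64.2, 36.8, 84.3 and 193 CPM (-1.97 ± 0.50, adjusted p = 0.165). All 3 overlapped narrowly.

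Autophagy and lysosome genes had 24 of 36 above 0 and a median of 0.47, which was 0.29 without the unevenly covered pair of libraries. Nbr1, a receptor that brings ubiquitinated cargo to autophagosomes, counted 124, 144, 116 and 118 against 68.6, 77.3, 38.6, 63.5 and 48.9 CPM (1.08 ± 0.27, adjusted p = 0.163). Psap, the precursor of the saposins that help degrade sphingolipids, counted 295, 306, 216 and 197 against 144, 152, 131, 144 and 187 CPM (0.74 ± 0.22, adjusted p = 0.219). Pik3c3, the lipid kinase that starts autophagosome formation, counted 26.6, 59.4, 35.2 and 52.5 against 22.1, 16.2, 15.5, 15.02 and 21.3 CPM (1.27 ± 0.39, adjusted p = 0.233). All 3 separated the groups. Of the vacuolar proton pump genes 10 of 17 lay above 0 (median 0.18). The accessory subunit Atp6ap2 counted 302, 515, 257 and 254 against 138, 147, 169.5, 184 and 191 CPM (0.999 ± 0.25, adjusted p = 0.163). Atp6v1g2, a neuronal subunit, counted 2079, 2076, 1878 and 939.5 against 2438, 2319, 2424, 2473 and 2585 CPM (-0.49 ± 0.22, adjusted p = 0.432), so members of the same pump lay on opposite sides without overlap.

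Cholesterol synthesis genes, which SREBP2 controls together, had 15 of 23 above 0 (median 0.43). At an unadjusted p under 0.05, 7 were higher and none lower, beside backgrounds of 6.86 and 6.87%. Of the well-expressed members, 2 reached the mean of 5 CPM only through the Ptbp1 shRNA group and had to differ upward, 1 of them among those 7. The median was 0.22 without the unevenly covered pair of libraries, 0.25 without Ptbp1 shRNA library 2 and 0.21 with limma. Idi1 counted 56.4, 91.8, 66.5 and 30.9 against 37.5, 21.1, 21.9, 9.53 and 15.5 CPM (1.54 ± 0.45, adjusted p = 0.219). Cyp51 counted 64.3, 51.7, 32.4 and 25.5 against 11.9, 21.8, 14.5, 12.4 and 23.6 CPM (1.37 ± 0.42, adjusted p = 0.239). Cyp51 did not overlap, and Idi1 did. Fdps, Msmo1 and Nsdhl lay below 0; these 3 are named for their direction after their values were seen. The summed level of the list was 1207, 1183, 1074 and 1217 CPM against 778, 859.5, 779, 883 and 762 CPM, without overlap.

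**Figure D4:**
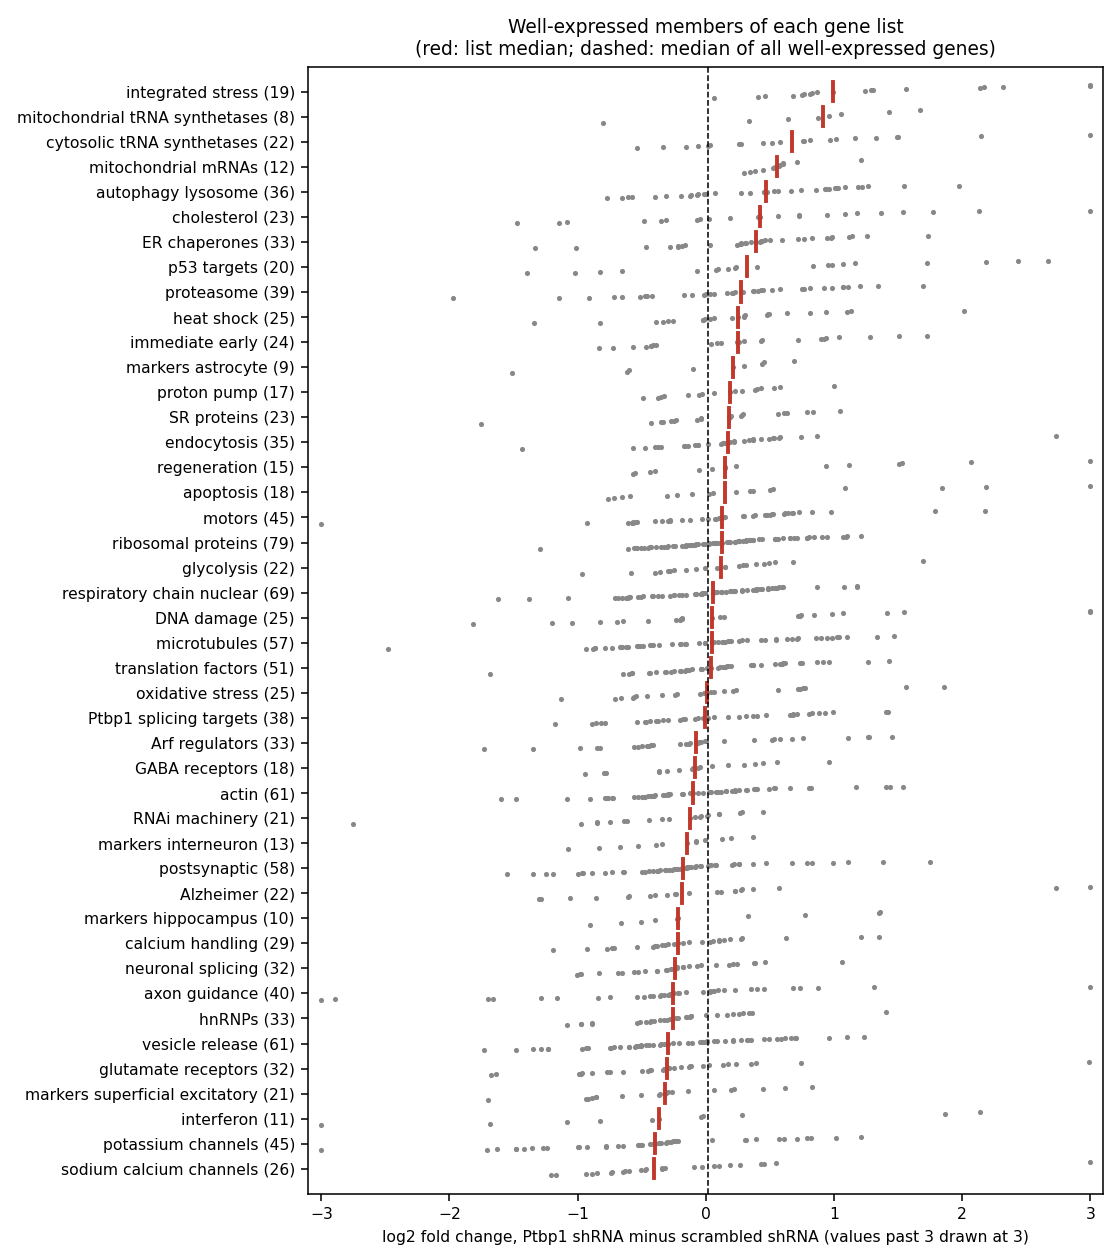
Grey points are the log2 differences (Ptbp1 shRNA minus scrambled, edgeR) of the well-expressed members of each list with 8 or more of them, values past 3 or -3 being drawn at those limits; red bars are list medians, the dashed line is the median of all well-expressed genes, and the number of members is in parentheses. List medians run from 1.00 (integrated stress) to -0.40 (potassium channels, sodium and calcium channels), and members of nearly every list lie on both sides of 0.

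The vesicle release list holds the SNARE proteins, their regulators and active zone proteins. Of its 61 members 39 lay below 0 (median -0.29), 13 of them at an unadjusted p under 0.05 against 3 higher. The backgrounds are 6.87% lower and 6.86% higher. In the class of genes with the highest level, of 2521 genes, 382 were lower and 208 higher at that p. Cplx2, a complexin that clamps and promotes fusion, counted 776, 697, 512 and 510.4 against 1555, 1228, 1243, 1608 and 1699 CPM (-1.23 ± 0.20, adjusted p = 0.0625). Napg, an adaptor for SNARE disassembly, counted 480.2, 617, 501 and 496 against 301, 268, 206, 163 and 282 CPM (1.102 ± 0.22, adjusted p = 0.076). Ppfia2, the active zone organiser liprin-alpha-2, counted 1145, 1422, 1091 and 1473 against 752, 556, 849.5, 476 and 654 CPM (0.96 ± 0.20, adjusted p = 0.106). These 3 did not overlap, and the latter 2 were higher, against the direction of the list.

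In the postsynaptic list 40 of 58 members lay below 0 (median -0.18), 12 lower and 1 higher at an unadjusted p under 0.05, and 5 lower and none higher without overlap. The backgrounds are 6.87% lower and 6.86% higher at that p and 3.05 and 2.75% without overlap; in the class of genes with the highest level, of 2521 genes, they are 382 lower and 208 higher, and 165 and 86. Kalrn, the exchange factor kalirin that enlarges dendritic spines, counted 329, 318, 341 and 514 against 882, 737, 833, 903 and 938 CPM. Camk2n1, an inhibitor of the kinase CaMKII, counted 756, 1280, 1142 and 227 against 2005, 2950, 2669, 1856 and 2985 CPM (-1.55 ± 0.39, adjusted p = 0.165). Ppp3r1, the regulatory subunit of the phosphatase calcineurin, counted 891, 1373, 1356 and 947 against 1937, 2155, 1866, 1683 and 1870 CPM (-0.74 ± 0.19, adjusted p = 0.165), and its catalytic partner Ppp3cb counted 612, 718, 941 and 572 against 1001, 1387, 1181, 954 and 1613 CPM (-0.79 ± 0.22, adjusted p = 0.202). In all 4 every Ptbp1 shRNA library was below every scrambled one. The summed level of the list was 16940, 20650, 19680 and 16780 CPM against 25990, 25000, 23840, 24120 and 26520 CPM, again without overlap.

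Potassium channels and their partners had 34 of 45 members below 0, with a median of -0.40. At an unadjusted p under 0.05, 10 were lower and none higher, and 6 did not overlap (backgrounds for lower genes 6.87 and 3.05%). Of the 10, 1 reached the mean of 5 CPM only through the scrambled group and had to differ. Kcnip3, a calcium-binding partner of Kv4 channels, counted 176, 269, 149 and 176 against 444, 512, 427, 623 and 690.2 CPM. Kcnv1, a silent subunit that modifies Kv2 channels, counted 109, 206, 126 and 102 against 236, 374, 244, 265 and 524 CPM (-1.27 ± 0.31, adjusted p = 0.152). Kcnma1, the large-conductance calcium-activated channel, counted 148, 160.1, 232 and 186 against 243, 443, 403, 299 and 339 CPM (-0.93 ± 0.24, adjusted p = 0.165). Others with an unadjusted p under 0.05 were Kcnh5, Kcnq5, Kcnf1, Kcnq3, Kcnip2 and Kcnip4, members of several channel families; they were chosen after their values were seen.

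Sodium and calcium channels had 18 of 26 below 0 (median -0.40). Cacnb4, an auxiliary calcium channel subunit, counted 328, 682, 697 and 546 against 1207, 1152, 914, 1058 and 1053 CPM (-0.93 ± 0.23, adjusted p = 0.154), and Scn8a, the sodium channel Nav1.6 of the axon initial segment, 387, 427, 425 and 399 against 440.0, 466, 806, 954 and 733 CPM (-0.73 ± 0.24, adjusted p = 0.267). Neither overlapped. The T-type channel Cacna1g was higher at an unadjusted p under 0.05 through Ptbp1 shRNA libraries 2 and 4 (36.4 and 16.6 CPM, against at most 2.60 CPM in the other 7). It reached the mean of 5 CPM only through the Ptbp1 shRNA group and had to differ. Calcium-handling genes had 18 of 29 below 0 (median -0.22); the pump Atp2a2 counted 471, 386, 444 and 362 against 576, 687, 593, 644 and 515 CPM (-0.54 ± 0.18, adjusted p = 0.267). The calcium sensors Ncald and Vsnl1 had log2 differences of -0.77 ± 0.26, adjusted p = 0.267 and -0.72 ± 0.25, adjusted p = 0.295.

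Glutamate receptors and their auxiliary subunits had 24 of 32 below 0 (median -0.30), and none was without overlap (backgrounds 3.05% lower and 2.75% higher). Their 4 members at an unadjusted p under 0.05 were all lower (background 6.87%). They included the metabotropic receptors Grm4 (-1.67 ± 0.63, adjusted p = 0.337) and Grm3 (-1.64 ± 0.70, adjusted p = 0.414) and the AMPA receptor partner Cacng3 (-0.97 ± 0.42, adjusted p = 0.414). GABA receptor genes had 11 of 18 below 0, and their median of -0.08 turned to 0.06 without the unevenly covered pair. Kctd12, an auxiliary subunit of GABA-B receptors, counted 121, 129, 158 and 97.05 against 332, 250.1, 285, 196 and 149.5 CPM (-0.94 ± 0.27, adjusted p = 0.211), and the receptor Gabbr1 had a log2 difference of -0.80 ± 0.33, adjusted p = 0.384.

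**Figure D5:**
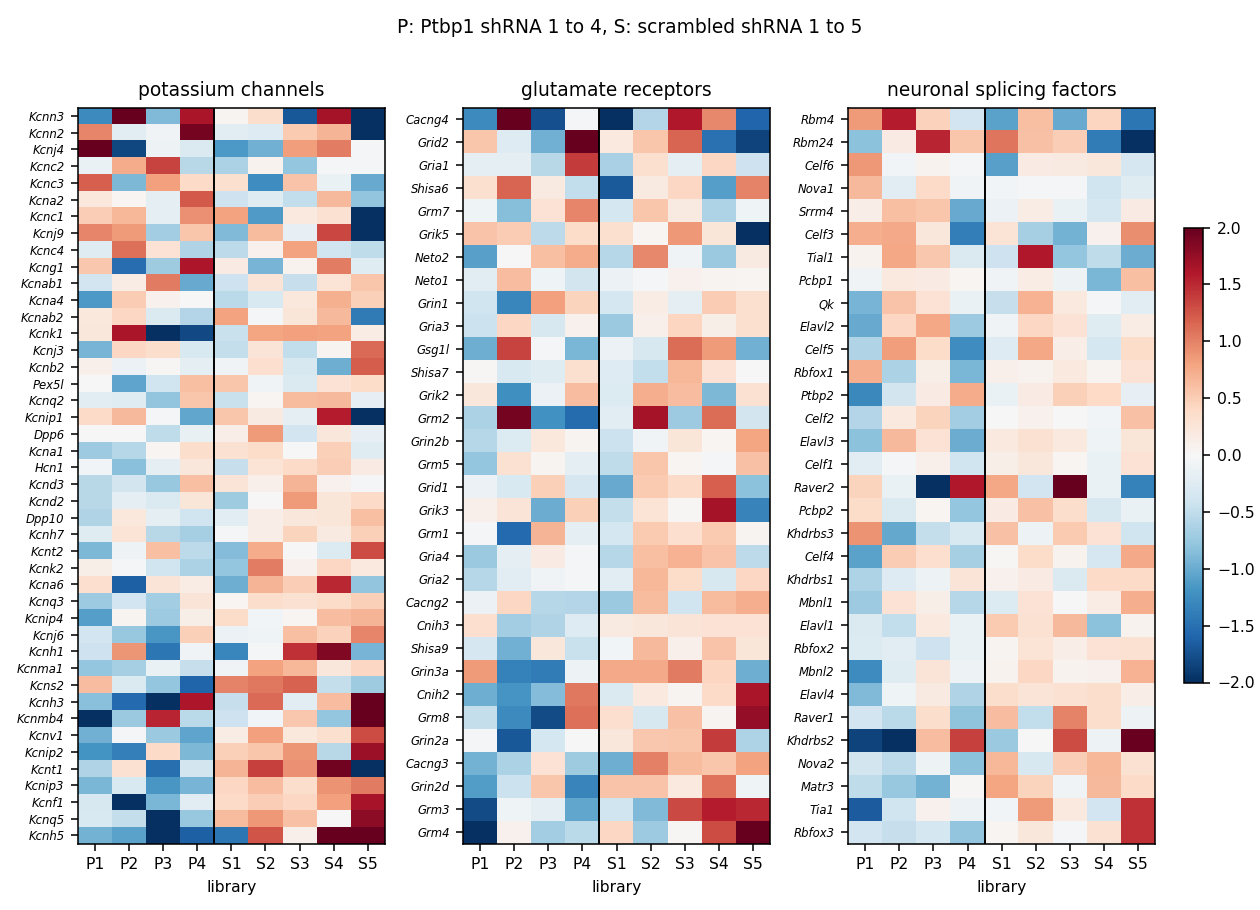
As in the plot of stress genes, each cell gives log2(CPM + 0.5) of a library minus the gene's mean over the 9 libraries for well-expressed potassium channel, glutamate receptor and neuronal splicing genes, ordered by fitted log2 difference. The lower part of the potassium channel panel is mostly blue in Ptbp1 shRNA libraries 1 to 4 and mostly red in the scrambled libraries, while many rows in the upper part follow single libraries.

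Of the hnRNP list, the abundant nuclear proteins that coat pre-mRNA, 25 of 33 members lay below 0 (median -0.26), and of the neuronal splicing regulators 24 of 32 (median -0.24). Matr3, a nuclear matrix protein that binds together with Ptbp1, counted 119, 99.95, 87.7 and 173 against 293, 232, 161, 268 and 223 CPM (-0.97 ± 0.27, adjusted p = 0.198). Rbfox3, the neuronal marker NeuN, counted 129.8, 123, 132 and 97.8 against 173, 198, 165, 209 and 468 CPM (-1.004 ± 0.32, adjusted p = 0.254). Nova2 counted 92.4, 82.98, 112 and 67.5 against 189.7, 95.3, 168, 189.6 and 148 CPM (-0.83 ± 0.27, adjusted p = 0.262). Fubp1, which binds single-stranded nucleic acid, counted 67.96, 50.8, 58.5 and 48.1 against 170.4, 140.5, 108, 108 and 69.1 CPM (-1.08 ± 0.30, adjusted p = 0.202). Taf15, an RNA-binding protein that also joins the general transcription machinery, lay the other way with 54.7, 43.4, 75.5 and 79.96 against 26.3, 23.3, 16.96, 34.04 and 19.3 CPM (1.403 ± 0.35, adjusted p = 0.164). Rbfox3, Fubp1 and Taf15 did not overlap. SR proteins, which mostly promote exon inclusion, had 13 of 23 above 0 (median 0.18), with Srsf12 at -1.76 ± 0.65, adjusted p = 0.323 and Tra2a at 1.04 ± 0.46, adjusted p = 0.423.

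Genes whose exons Ptbp1 is known to control lay evenly on both sides: 19 of 38 were above 0 (median -0.0031, with a sign that changed with the setting). Dtna, a dystrobrevin of the dystrophin complex, was among the 42 called, with 302, 305, 236 and 329 against 99.6, 82.5, 78.3, 92.3 and 195 CPM (1.42 ± 0.29, adjusted p = 0.0816). Dab1, which relays reelin signals, counted 107, 219.7, 212 and 135 against 339, 339.9, 348, 444 and 437 CPM (-1.18 ± 0.25, adjusted p = 0.11). Both were without overlap, in opposite directions.

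Cytoskeleton and trafficking genes split. Motor proteins had 29 of 45 above 0 (median 0.13): Dync1h1, the dynein heavy chain, counted 141, 177, 106 and 337 against 55.9, 42.7, 56.9, 74.6 and 45.5 CPM, and the kinesin Kif5c counted 1219, 948, 1031 and 931 against 692, 723, 605, 631 and 469.7 CPM (0.73 ± 0.18, adjusted p = 0.163). The dynein light chain Dynlt3 was lower, with 321, 353, 327 and 612 against 771, 746, 861, 741 and 720.1 CPM (-0.93 ± 0.22, adjusted p = 0.144). None of the 3 overlapped. Microtubule genes were even, with 29 of 57 above 0 (median 0.04). Clip1, which tracks growing plus ends, counted 504, 377, 670.1 and 525 against 245, 220.4, 251, 232 and 318 CPM (1.04 ± 0.21, adjusted p = 0.0816) and was among the 42. Mapre2, another plus-end protein, counted 528, 478, 491 and 366 against 919.8, 779, 941, 786 and 585 CPM (-0.78 ± 0.20, adjusted p = 0.165). Dpysl5, a collapsin response mediator, counted 23.9, 18.9, 4.73 and 8.301 against 115, 27.98, 34.8, 80.6 and 131 CPM (-2.48 ± 0.60, adjusted p = 0.154); both were lower without overlap.

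Actin genes had 33 of 61 below 0 (median -0.10), with 10 lower and 5 higher at an unadjusted p under 0.05 (backgrounds 6.87 and 6.86%). Their summed level was 14670, 17270, 16490 and 16130 CPM against 19580, 17920, 17840, 17760 and 20350 CPM. Beside Tmod2 and Luzp1, the GTPase Rac1 counted 732, 1009, 879 and 717 against 1451, 1256, 1341, 1428 and 1467 CPM (-0.73 ± 0.17, adjusted p = 0.135), without overlap. Arf GTPase regulators had 21 of 33 below 0 (median -0.08); Asap1 counted 87.6, 86.8, 51.8 and 152 against 373, 312, 299, 317 and 267 CPM, while its relative Agap1 was higher with 206, 145, 194 and 101 against 75.7, 63.7, 64.6, 86.95 and 43.5 CPM (1.27 ± 0.29, adjusted p = 0.127). Acap3 was higher too (1.26 ± 0.51, adjusted p = 0.382). Endocytosis genes had 23 of 35 above 0 (median 0.17, below 0 without Ptbp1 shRNA library 4): the adaptor Cd2ap counted 76.5, 305, 203 and 84.8 against 16.4, 70.4, 12.3, 9.51 and 17.00 CPM (2.74 ± 0.62, adjusted p = 0.127) and the clathrin heavy chain Cltc 608, 475, 427 and 863 against 420.1, 269.6, 311, 395 and 228 CPM (0.87 ± 0.26, adjusted p = 0.219). Epn2, an epsin, was lower with 20.2, 17.1, 16.4 and 32.8 against 43.3, 59.7, 79.9, 66.8 and 42.3 CPM (-1.43 ± 0.37, adjusted p = 0.171). These 3 did not overlap.

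Axon guidance genes had 25 of 40 below 0 (median -0.26, -0.07 without scrambled library 4 and -0.11 without scrambled library 5). The repellent Sema3a counted 29.5, 52.3, 70.5 and 128 against 159, 227, 264, 165 and 322 CPM (-1.697 ± 0.39, adjusted p = 0.137). Sema4f was higher (3.14 ± 0.78, adjusted p = 0.163) and the ligand Efnb2 lower (-1.66 ± 0.46, adjusted p = 0.202), both with overlap. Sema4f reached the mean of 5 CPM only through the Ptbp1 shRNA group and had to differ. Genes of axon regeneration had 10 of 15 above 0 (median 0.15), among them Atf3 and Stat3 (2.07 ± 0.65, adjusted p = 0.249), with the growth cone protein Basp1 lower and without overlap (-0.57 ± 0.19, adjusted p = 0.262). Immediate early genes, which follow neuronal activity, had 16 of 24 above 0 (median 0.25), and Jun (0.94 ± 0.37, adjusted p = 0.368), Bdnf (0.93 ± 0.41, adjusted p = 0.421) and Nr4a2 (-0.72 ± 0.32, adjusted p = 0.433) all overlapped.

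Ribosomal protein genes had 47 of 79 above 0 (median 0.13), and 1 was without overlap (background for higher genes 2.75%). This was Rps27a, with 80.8, 56.2, 52.2 and 123 against 46.9, 42.7, 49.9, 36.4 and 27.4 CPM (0.94 ± 0.34, adjusted p = 0.312). Rpl10 and Rps2 had log2 differences of 0.84 ± 0.37, adjusted p = 0.421 and 1.104 ± 0.49, adjusted p = 0.428; genes of this family share sequence with many processed copies, so their counts are uncertain. Translation factors had 28 of 51 above 0 (median 0.04). Eif4b, which helps unwind mRNA for scanning, counted 212, 296, 164 and 131 against 116, 111, 109, 81.4 and 97.2 CPM (0.96 ± 0.26, adjusted p = 0.198), and Eif1ax and Eif2s1, the alpha subunit of eIF2 whose phosphorylation starts the integrated stress response, were lower (-0.57 ± 0.19, adjusted p = 0.267 and -0.60 ± 0.24, adjusted p = 0.361). All 3 were without overlap.

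Nuclear respiratory chain genes had 36 of 69 above 0 (median 0.06). The complex I subunit Ndufa10 counted 57.9, 42.8, 47.3 and 56.6 against 122, 98.5, 93.3, 85.03 and 141 CPM (-1.08 ± 0.27, adjusted p = 0.163), and the ATP synthase subunits Atp5c1 and Atp5e had log2 differences of -0.69 ± 0.22, adjusted p = 0.262 and -1.62 ± 0.57, adjusted p = 0.301. The mRNAs of the mitochondrial genome are not translated by the tagged cytosolic ribosomes. All 12 well-expressed ones lay above 0 (median 0.56), but without the unevenly covered pair 9 did, with a median of 0.13, and only mt-Co3 had an unadjusted p under 0.05 (1.21 ± 0.49, adjusted p = 0.381). Glycolysis genes had 12 of 22 above 0 (median 0.12). Ldha (-0.96 ± 0.31, adjusted p = 0.254) and Pdha1 (-0.58 ± 0.22, adjusted p = 0.335) were lower and Slc2a1 (1.697 ± 0.78, adjusted p = 0.442) higher at an unadjusted p under 0.05. Slc2a1 reached the mean of 5 CPM only through the Ptbp1 shRNA group and had to differ.

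Interferon-induced genes, which double-stranded RNA such as a hairpin can raise, had 8 of 11 below 0 (median -0.37, above 0 without scrambled library 4), while of all 28 tested 15 lay above 0 (median 0.11). Ifit2 counted 20.97, 17.02, 23.3 and 48.5 against 8.11, 3.17, 15.6, 3.94 and 6.96 CPM (1.86 ± 0.59, adjusted p = 0.248). Irf9 counted 2.73, 0.577, 0.252 and 0.548 against 28.7, 2.12, 0.232, 9.01 and 9.94 CPM (-3.28 ± 1.27, adjusted p = 0.349). Ifit2 was without overlap, and the level of Irf9 varied over a wide range within the scrambled group. RNA interference genes had 14 of 21 below 0 (median -0.13), with Tut7 at -0.85 ± 0.27, adjusted p = 0.259 and Prkra at -2.76 ± 1.09, adjusted p = 0.366. Irf9 and Prkra reached the mean of 5 CPM only through the scrambled group and had to differ. Genes linked to Alzheimer's disease had 12 of 22 below 0 (median -0.18). The lipid exporter Abca1 was higher (3.499 ± 1.02, adjusted p = 0.217, from 33.7 CPM in Ptbp1 shRNA library 2 and 0.782 to 7.99 CPM in the other 3). Abca1 reached the mean of 5 CPM only through the Ptbp1 shRNA group and had to differ. The transcription factor Mef2c was lower without overlap (275, 842, 844 and 523 against 1079, 1244, 1036, 991 and 1280 CPM, -0.86 ± 0.29, adjusted p = 0.27).

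Of 21 well-expressed markers of excitatory neurons of superficial layers 15 lay below 0 (median -0.32), 5 at an unadjusted p under 0.05 (background 6.87%). The summed level was 4286, 4220, 4288 and 3256 CPM against 6977, 6204, 6469, 6218 and 5296 CPM, without overlap. Camk2a alone supplied 812 to 2149 CPM of it in the Ptbp1 shRNA libraries and 1988 to 3744 CPM in the scrambled ones. Mef2c supplied 275 to 844 CPM and 991 to 1280 CPM. The level of the list without these genes was not tested. Rorb counted 66.5, 60.9, 109 and 72.5 against 139.9, 181, 143, 130.2 and 135 CPM (-0.92 ± 0.25, adjusted p = 0.202). Camk2a counted 2149, 1380, 1530 and 812 against 3744, 2112, 2744, 3015 and 1988 CPM (-0.89 ± 0.27, adjusted p = 0.237). Reln, the defining marker of layer II stellate neurons, counted 128, 138, 97.3 and 266 against 206, 192, 200, 221 and 124 CPM (-0.26 ± 0.30, adjusted p = 0.824). Calb1, of the pyramidal neurons, counted 66.8, 65.7, 134 and 156 against 132, 218, 150.1, 72.3 and 87.7 CPM (-0.32 ± 0.38, adjusted p = 0.828); both are given as the defining markers of the labelled cells and overlapped. Their presence in all 9 libraries goes with the layer II label; they mark neurons of the hippocampal formation too. The part of the marker level in the synaptic and channel results was not tested.

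Of the microglial markers 2 of 18 were well expressed, the list summed to 13.5 to 60.1 CPM in the Ptbp1 shRNA libraries and from 20.7 to 46.8 CPM in the scrambled ones, and C1qa and Trem2 were at 0 in all libraries. Oligodendrocyte markers (5 of 18 well expressed, none above 0, median -0.13) summed to 95.2 to 195 CPM in the Ptbp1 shRNA libraries and from 128 to 161 CPM in the scrambled ones. Vessel markers (3 of 20) summed to 115 to 272 CPM in the Ptbp1 shRNA libraries and from 120.0 to 181 CPM in the scrambled ones, with Cldn5 at 0 throughout. Astrocyte markers (9 of 19, 5 above 0, median 0.21) summed to 474 to 1040 CPM in the Ptbp1 shRNA libraries and from 924 to 1440 CPM in the scrambled ones. That median changed sign in 5 settings, and of all 15 tested 6 lay above 0 (median -0.60). Most of that sum came from Slc1a2 and Atp1b2, which are not restricted to astrocytes; Atp1b2, a sodium pump subunit, counted 77.4, 182, 84.99 and 78.9 against 239, 355, 296, 337 and 288 CPM (-1.51 ± 0.29, adjusted p = 0.0758) and Slc1a2, a glutamate transporter, had a log2 difference of -0.62 ± 0.27, adjusted p = 0.416. Reactive astrocyte markers (2 of 13, both above 0, median 1.21) summed to 19.2 to 49.6 CPM in the Ptbp1 shRNA libraries and from 3.82 to 22.2 CPM in the scrambled ones. Both well-expressed ones reached the mean of 5 CPM only through the Ptbp1 shRNA group and had to differ upward. Interneuron markers had 10 of 13 below 0 (median -0.15), and hippocampal markers 6 of 10 (median -0.22), with Fam163b lower (-0.91 ± 0.32, adjusted p = 0.302) and Npy2r higher (1.36 ± 0.62, adjusted p = 0.441). Interneuron markers summed to 544 to 1050 CPM in the Ptbp1 shRNA libraries and from 720.0 to 1110 CPM in the scrambled ones. Hippocampal markers summed to 1020 to 1620 CPM in the Ptbp1 shRNA libraries and from 1360 to 2100 CPM in the scrambled ones.

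Because Ptbp1 is a splicing regulator, exon bins, the non-overlapping exon segments of each gene, were tested for their share of the gene's counts; their coordinates are those of mm10. Of 83164 bins in 8593 genes 1 was called (edgeR diffSpliceDGE, adjusted p at or under 0.05, 0.0012%), and 1647 (1.98%) had an unadjusted p under 0.05, where 4158 would be expected. The called bin was Dph6 bin 010. The gene encodes an enzyme that modifies elongation factor 2, and the bin spans chr2:114545729-114545891 (163 bases, outside the coding sequence). It held 41, 500, 79 and 21 counts in the Ptbp1 shRNA libraries and 0, 0, 0, 0 and 1 in the scrambled ones, and its log2 difference in usage was 5.43 (adjusted p = 0.0041). Bins too passed a filter on low counts, and this bin did so only through the Ptbp1 shRNA group and had to differ. The call was lost without Ptbp1 shRNA library 2 (edgeR adjusted p = 0.492), without scrambled library 1, 2, 3 or 4 (0.0575 to 0.126) and without the unevenly covered pair (0.282), and with limma (0.74).

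Bin 023 of Sept8, a septin, outside the coding sequence at chr11:53541899-53544095, held 66, 156, 30 and 101 counts against 0, 2, 6, 0 and 0 (adjusted p = 0.503). This bin also passed the filter on low counts only through the Ptbp1 shRNA group and had to differ. The last bin of Psme4, 059, carried 4.18, 13.3, 7.17 and 3.66% of the gene's counts against 43.7, 14.9, 11.85, 33.2 and 47.4% (adjusted p = 0.503), overlapping only between Ptbp1 shRNA library 2 and scrambled library 3. Of the other bins with the smallest p, 6 lay in Ncam2, Snrnp200, Smarca2, Orc3, Foxj3 and Zfp874a. In Ncam2 a single library, Ptbp1 shRNA library 4, held 2850 counts, and the other 8 held at most 89. The bin of Zfp874a held 19, 11, 20 and 310 counts against 0, 1, 0, 1 and 0, and passed the filter in the same way as that of Sept8.

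Known Ptbp1 targets stood at the background. Of the 38 well-expressed target genes 35 had testable bins, 735 in all, of which 14 (1.9%) had an unadjusted p under 0.05 and none was called. Of the bins with the smallest p in each target, 1 separated the groups: bin 035 of Tpm1, a coding segment of 126 bases of this tropomyosin gene at chr9:67047786-67047911, with 0.280, 0.273, 0.0896 and 0.176% of the gene's counts against 0.325, 1.71, 1.02, 0.549 and 2.82% (edgeR adjusted p = 1). Bin 002 of Mef2c had the smallest p (edgeR adjusted p = 1), on at most 178 counts in a library.

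A pair of cassette segments was looked at after the values were seen. The coding segment of 93 bases in Mapt (chr11:104318157-104318249), which has the length of the alternative microtubule-binding repeat exon of tau, held 71, 8, 6 and 178 counts in the Ptbp1 shRNA libraries and 23, 40, 11, 36 and 0 in the scrambled ones (edgeR adjusted p = 1). Its share of the gene's counts ran from 0.139 to 5.55% and from 0 to 1.08%. The coding segment of 34 bases in Ptbp2 (chr3:119724612-119724645), the length of the exon that Ptbp1 skips to lower Ptbp2, held 59, 370, 219 and 62 counts against 93, 163, 160, 412 and 90 (edgeR adjusted p = 1). For both segments the spread between mice of a group was wider than the difference between the groups.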

How the data were processed

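RNA from TRAP was sequenced in 4 Ptbp1 shRNA and 5 scrambled shRNA libraries. The authors deposited raw read counts per gene and per exon bin. STAR 2.5.3a, HTSeq and the build mm10 are named, without their roles, in the submitters' processing notes; the annotation release and strandedness are not given in these sources. Groups were taken from the treatment labels. Lines of totals were left out of the gene counts and tests.

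Gene counts were filtered with filterByExpr, scaled by TMM and tested with the quasi-likelihood test of edgeR 4.0.16 (R 4.3.3), adjusted by Benjamini-Hochberg over all genes tested at 0.05; the scripts were tested on simulated data. Each ± is a standard error unless named SD, and log2 differences are Ptbp1 shRNA minus scrambled. Exon bins were tested with diffSpliceDGE, with bin coordinates from a flattened GENCODE M21 annotation, whose number of bins matched for 85.5% of single genes. limma 3.58.1, DESeq2 1.42.0, sva 3.50.0, other scalings and filters, and leaving out each library were alternatives. Single values were compared by exact permutation over 126 splits. With 4 and 5 mice per group the p-values measure the spread between these mice.

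The text names Ptbp1, Ptbp2, Ptbp3 and Mapt, then the 12 higher and 12 lower genes with the smallest p among well-expressed genes without overlap. It further names up to 3 members of each of 48 gene lists with the smallest p among those under 0.05, the 10 bins with the smallest p and the lowest-p bin of each splicing target. Some genes that this rule names are not reported here. Members and lists were chosen with earlier results of these data known.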

Additional observations from a re-analysis of the deposited data

Results flagged for a closer look

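In 25 of 270 groups of 4 or 5 samples examined, 1 library stood far from the others of its group by Dixon's criterion; chance alone marks about 1 in 20 groups. Of the 25, 7 were in Ptbp1 shRNA library 2 and 5 in scrambled library 5, the libraries with the least even coverage. In Ptbp1 shRNA library 2 the levels were 124.6 CPM for Arhgef11, 46.09 for Bcl2l11, 617.1 for Napg, 11880 for Vsnl1, 111.1 for Rpl10, 73.9 for Eif2s1 and 182.4 for Atp1b2. In scrambled library 5 they were 76.75 CPM for Ptbp3, 116.3 for Scyl2, 1199 for Wipf3, 195.2 for Dtna and 468.1 for Rbfox3. In Ptbp1 shRNA library 1 they were 175.6 CPM for Atp6v0c, 143.5 for Gabbr1 and 2.727 for Irf9. Ptbp1 shRNA library 3 had 70.95 CPM for Ubxn2b and 42.68 for Chek1, and Ptbp1 shRNA library 4 had 514.1 for Kalrn and 612.3 for Dynlt3. Scrambled library 2 had 0.7859 CPM for Chek1, 70.42 for Cd2ap, 11.62 for Slc2a1 and 181.4 for Rorb. Scrambled library 1 had 23.52 CPM for Stat3 and scrambled library 4 had 0.5223 for Neurod4. All were higher than the rest of their group, except Arhgef11 and Eif2s1 in Ptbp1 shRNA library 2 and Atp6v0c in Ptbp1 shRNA library 1, which were lower.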

How the results depend on the processing

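The count of 0 genes called became 11 without a filter on low counts, 42 with only well-expressed genes tested, 8 with the share of empty strong bins as a covariate, 30 with 1 surrogate variable, 69 with limma and 705 with DESeq2. The DESeq2 fit was also run without that filter. Leaving out 1 library gave 0 to 5. Among well-expressed genes these counts were 11, 42, 8, 29, 63 and 497, and 0 to 5. Testing only well-expressed genes, the count of 42 became 12 at a mean CPM of 2 or more, 0 at 1 or more, 74 at 20 or more, 23 without the 2 least evenly covered libraries and 86 with limma, and 0 to 20 without 1 library; these settings were chosen after seeing the data. Genes without overlap were 416 higher and 209 lower with library totals alone, 617 and 673 without the 2 least evenly covered libraries, and 364 to 505 and 374 to 576 without 1 library. Exon bins called were 3 with limma, 2 at a mean of 50 counts, 2 with the covariate, 0 without the 2 least evenly covered libraries and 0 to 3 without 1 library. The cause of these changes was not tested.

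The Ptbp1 difference of log2(CPM + 0.5) changed sign with a pseudocount of 2 (0.002526) and without Ptbp1 shRNA library 2 (0.5651) or 3 (0.2795) or scrambled library 3 (0.1176) or 5 (0.2211), between -0.9347 and 0.5651 without 1 library. Its edgeR estimate was -0.2636 with 1 surrogate variable, -0.7593 without Ptbp1 shRNA library 4 (to 0.84 without scrambled library 5) and -0.0154 with limma. Ptbp2 changed sign without Ptbp1 shRNA library 1 (0.079; lowest -0.5572) and Ptbp3 without Ptbp1 shRNA library 3 (-0.0681; highest 0.4395). Bins that changed sign were Actn1 009 (0.8392 with limma, 0.8048 without scrambled library 2), Cltb 002 (-0.216 with the covariate, -0.2483 without the 2 least evenly covered libraries, -0.4846 without Ptbp1 shRNA library 2), Kif1b 049 (-0.7064) and Ncam2 016 (-0.4823), the last 2 without Ptbp1 shRNA library 4. Without 1 library the other ends of their ranges were -1.8423, 0.7077, 2.1788 and 3.2465. Of 48 list medians, those of DNA damage, apoptosis, oxidative stress, endocytosis, GABA receptor, microtubule, interferon, splicing target, respiratory chain, glycolysis and hippocampal, astrocyte, microglial, oligodendrocyte and vessel marker genes changed sign in at least 1 setting. No paired analysis was possible because the labels give the groups no shared replicate numbers.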
